A study of Mus musculus with 6 samples.

Results

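Skeletal muscle genes were followed through 6 subcutaneous mouse tumours. They are 35 genes chosen by symbol, for the contractile filaments, calcium handling and energy supply of striated muscle fibres, out of 55357 genes in the deposited table. All 35 symbols were found, each in a single row. The tumours grew in C57BL/6J mice after subcutaneous injection of 250000 KPC1242 cells, which are a line of mouse pancreatic ductal adenocarcinoma. In the FA group, 3 tumours came from mice given 2 mg folinic acid (FA, a reduced folate) by oral gavage each day from day 8 to day 12. In the PBS group, 3 tumours came from mice given phosphate-buffered saline on the same days. All tumours were taken on day 14, and each gave 1 library of total RNA. The study asked how FA alters the tumour microenvironment, and the comparison of FA with PBS tumours addresses that for the muscle genes.

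A striated muscle fibre contracts when myosin heads of the thick filament pull on actin of the thin filament. Calcium released from the sarcoplasmic reticulum allows this by binding troponin C, one of the 3 subunits of the troponin complex beside troponin I and troponin T. Fast and slow fibres build the same machinery from different genes, so within fibres the paralogue that is expressed can tell the fibre type. Mouse skin rests on a thin sheet of striated muscle, the panniculus carnosus.

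Values are TPM, a relative transcript abundance that allows for transcript length and adds up to one fixed total per library. TPM keeps no read depth, so the precision of single values from read counting is unknown. Ductal keratin transcripts were abundant in every tumour, with Krt19 between 1177 and 1312 TPM in FA tumours and between 1071 and 1186 TPM in PBS tumours. FA replicate 3 stood apart from the other tumours over all genes. Its Pearson correlation with them, across genes that are not independent replicates, was between 0.949 and 0.968, and among the other 5 tumours the range was 0.981 to 0.987. In whole-tumour RNA, fewer cells of a type and less RNA per cell cannot be told apart.

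The muscle genes separated the tumours into unequal loads that did not follow treatment. Their summed abundance was 248, 423 and 2029 TPM in FA replicates 1, 2 and 3, against 491, 231 and 413 TPM in PBS replicates 1, 2 and 3. The groups overlapped: FA replicate 1 and PBS replicate 2 were both low, and FA replicate 3 alone was far above the rest. Even there the 35 genes held 0.203% of all TPM, against 0.0231% to 0.0491% in PBS tumours. Group means were 900 ± 982 TPM for FA and 378 ± 133 TPM for PBS (SD, n = 3 each), a log2 ratio of 1.25. Without FA replicate 3 the log2 ratio was -0.17.

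Most of the sum in the low tumours came from a few genes. Tpm2, which encodes the beta-tropomyosin that many contractile cell types also make, stood at 186, 168 and 231 TPM in FA tumours, against 192, 173 and 183 TPM in PBS tumours. Without Tpm2, Des, Tnnt1, Tnnc1 and Eno3, the other 30 genes summed to 23.4, 204 and 1655 TPM in FA tumours and to 250, 23.8 and 182 TPM in PBS tumours. This low sum was nearly the same in FA replicate 1 and PBS replicate 2, although one is an FA and the other a PBS tumour. Much of it was Tnni2, at 10.6 and 12.3 TPM there, and Casq1, at 4.91 and 3.92 TPM. The 18 genes whose lowest tumour was under 1% of the highest, a class picked by that spread, had smaller sums there. They summed to 1.21, 137 and 1279 TPM in FA tumours and to 177, 1.49 and 128 TPM in PBS tumours.

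**Figure D1:**
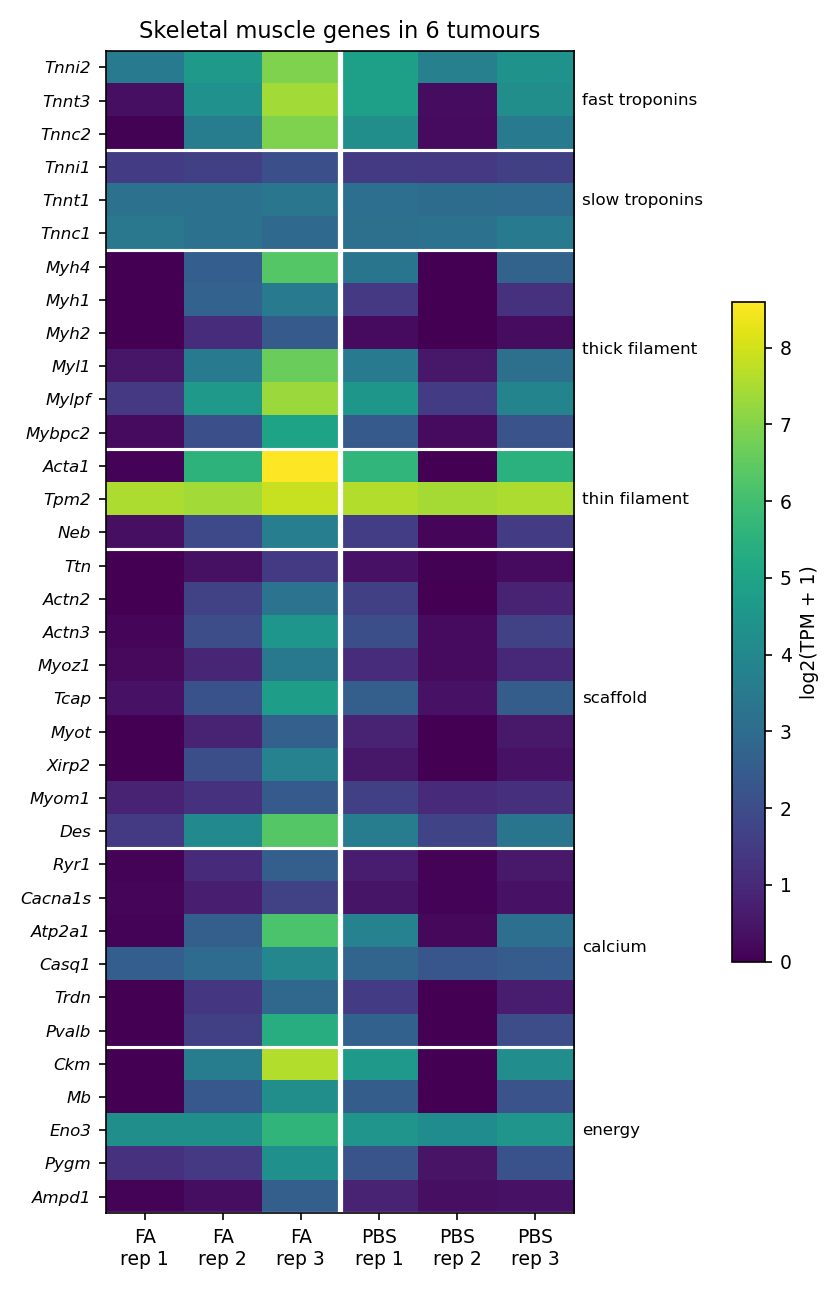
Heat map of log2(TPM + 1) for the 35 skeletal muscle genes (rows, ordered by role) in 3 FA and 3 PBS tumours (columns). FA replicate 1 and PBS replicate 2 are dark for most genes, FA replicate 3 is brightest, and Tpm2 and the slow troponins keep similar colours across all 6 columns.

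The highest tumour and the lowest pair of tumours were shared by most of the genes. FA replicate 3 had the highest value for 34 of the 35 genes, the exception being Tnnc1. That held for 31 of the 32 genes tested, those with a mean of at least 1 TPM, against 29.4% of all 15023 genes tested. For 7 of the 32, which passed this filter only through FA replicate 3, that outcome was close to fixed. FA replicate 1 and PBS replicate 2 were the lowest 2 tumours for 29 of the 35 genes and 26 of the 32 tested, against 9.67% of all genes tested. With FA replicate 3 left out, these tumours were still lowest for 29 of the 35, against 12.6% of all genes. Both patterns held together for 29 of the 35 genes and 26 of the 32 tested, against 7.12% of all genes tested. An FA tumour was highest for 34 of the 35 (62.6% of all genes tested), but for 12 of the 35 without FA replicate 3 (41.1% of all genes). Another pair of tumours was lowest for Tnni1, Tnnt1, Tnnc1, Tpm2, Casq1 and Ampd1. FA replicate 1 and PBS replicate 2 were both listed at 0 TPM for 9 genes, namely Myh4, Myh1, Myh2, Actn2, Myot, Trdn, Pvalb, Ckm and Mb.

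The fast troponin genes varied widely across tumours. Tnni2, fast troponin I, which holds the thin filament off in the absence of calcium, stood at 10.6, 23.5 and 121 TPM in FA tumours, against 27.6, 12.3 and 20.3 TPM in PBS tumours. Tnnt3, fast troponin T, which anchors the complex to tropomyosin, stood at 0.28, 19.3 and 167 TPM in FA tumours, against 28.0, 0.23 and 17.8 TPM in PBS tumours. Tnnc2, the calcium sensor of fast fibres, stood at 0.04, 11.3 and 121 TPM in FA tumours, against 18.1, 0.20 and 10.8 TPM in PBS tumours. For each gene the groups overlapped and FA replicate 3 exceeded the next highest tumour, by 4.37-fold for Tnni2, 5.96-fold for Tnnt3 and 6.67-fold for Tnnc2. Tnni2 differed from its partners in the low tumours: it kept 10.6 TPM in FA replicate 1 and 12.3 TPM in PBS replicate 2, where Tnnt3 and Tnnc2 were at or under 0.28 TPM. Tnni2 and Tnnt3 lie close together in the mouse genome, with 1 protein-coding gene between them in RefSeq.

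The slow troponin genes varied little. Tnni1, slow troponin I, stood at 1.79, 2.08 and 3.32 TPM in FA tumours, against 1.76, 1.71 and 2.12 TPM in PBS tumours. Tnnc1, the troponin C of slow and cardiac muscle, stood at 9.81, 8.42 and 6.61 TPM in FA tumours, against 8.07, 8.22 and 10.3 TPM in PBS tumours, and was the one gene with its lowest value in FA replicate 3. Tnnt1, slow troponin T, stood at 8.17, 8.48 and 9.24 TPM in FA tumours, against 7.79, 7.13 and 7.0 TPM in PBS tumours. It was the only one of the 35 genes whose groups did not overlap, in the higher direction in FA. Of all genes tested, 2.48% had every FA tumour above every PBS tumour and 2.22% had every FA tumour below. By limma its log2 difference of 0.21 ± 0.10 (SE) had an unadjusted p of 0.0826, with an adjusted p of 1.

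The slow troponin sum lay between 19.0 and 19.8 TPM in FA tumours and between 17.1 and 19.4 TPM in PBS tumours, so the fast share of troponin TPM follows the fast troponin level by construction. That sum was 19.8 TPM in FA replicate 1 and 17.1 TPM in PBS replicate 2, where Ckm, Mb and Myh4 were listed at 0. Which cells gave the slow troponin transcripts was not tested, so the share is not a measure of fibre composition. The share was 35.7%, 74.0% and 95.5% in FA tumours, against 80.7%, 42.7% and 71.6% in PBS tumours. The groups overlapped, at 68.4% ± 30.3 in FA and 65.0% ± 19.8 in PBS tumours (SD, n = 3 each). By subunit, the fast share of troponin C ranged from 0.406% to 94.8% in FA tumours and from 2.38% to 69.2% in PBS tumours. The share of troponin I stayed between 85.6% and 97.3% in FA tumours and between 87.8% and 94.0% in PBS tumours.

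**Figure D2:**
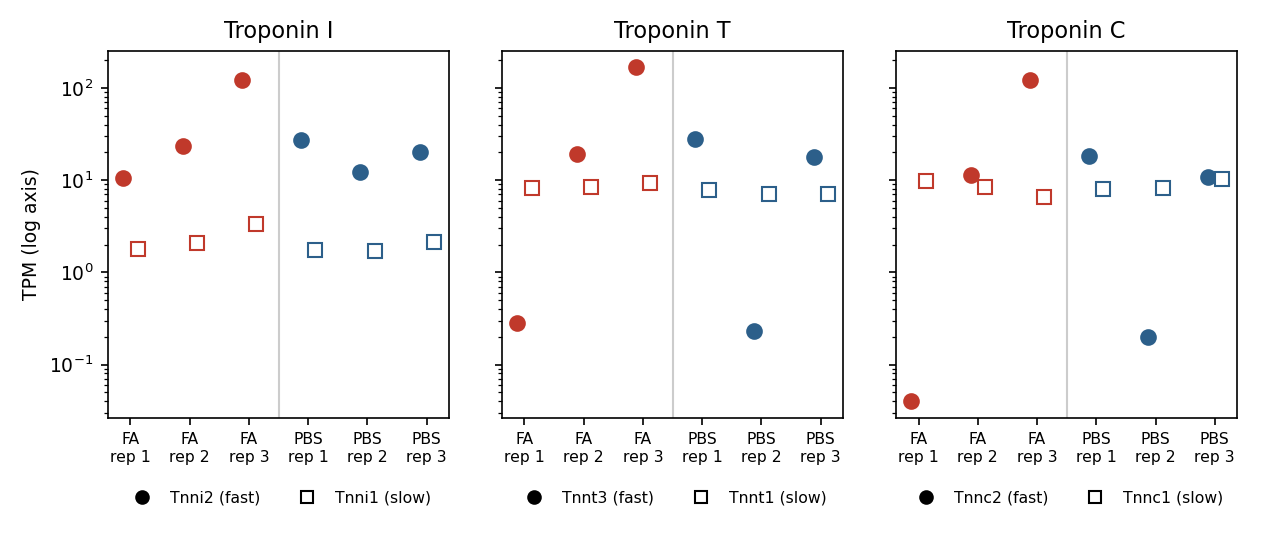
Abundance (TPM, log axis) of fast (filled circles) and slow (open squares) troponin I, T and C genes in each FA (red) and PBS (blue) tumour. Tnnt3 and Tnnc2 fall to 0.28 TPM or less in FA replicate 1 and PBS replicate 2 while the slow paralogues stay between 1.71 and 10.3 TPM in every tumour.

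Other slow-fibre genes differed in how they varied, and the slow myosins were nearly absent. Myh7, the myosin heavy chain of slow fibres, reached at most 0.01 TPM in FA tumours, against 0.09 TPM in PBS tumours. Of the slow myosin light chain genes, Myl2 was listed at 0 in all FA tumours and reached 0.17 TPM in PBS tumours, and Myl3 reached 0.08 TPM in FA tumours, against 0.08 TPM in PBS tumours. These slow myosin genes thus stayed near 0 even in FA replicate 3. Atp2a2, a calcium pump of slow and cardiac muscle that many other cells use, stood between 121 and 133 TPM in FA tumours and between 119 and 136 TPM in PBS tumours. Tpm3 stood between 628 and 708 TPM in FA tumours and between 616 and 644 TPM in PBS tumours. Both were abundant and even across tumours. Mybpc1, the myosin-binding protein C named for slow muscle, did follow the load and stood at 0, 2.09 and 9.15 TPM in FA tumours, against 2.14, 0 and 1.36 TPM in PBS tumours. Myoz2, a Z-disc gene of slow fibres, had the same low and high tumours, at 0.03, 0.31 and 1.62 TPM in FA tumours, against 0.19, 0 and 0.33 TPM in PBS tumours. Of 9 genes on the list, 3 had a mean of at least 1 TPM and were tested, and 0 passed.

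Fast myosin heavy chain genes, each typical of a fibre subtype, were listed at 0 in the low tumours. Myh4, the chain of the fastest (2B) fibres, stood at 0, 4.90 and 78.7 TPM in FA tumours, against 9.14, 0 and 5.62 TPM in PBS tumours. Myh1, the chain of 2X fibres, stood at 0, 5.53 and 10.8 TPM in FA tumours, against 1.69, 0 and 1.35 TPM in PBS tumours. Myh2, the chain of fast oxidative (2A) fibres, stood at 0, 1.11 and 4.39 TPM in FA tumours, against 0.20, 0 and 0.22 TPM in PBS tumours. The 4 tumours with any of these transcripts were FA replicates 2 and 3 and PBS replicates 1 and 3.

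FA replicate 2 had another mix of myosin chains than the other 3 muscle-bearing tumours. Of the summed TPM of Myh4, Myh1, Myh2 and Myh7, Myh4 held 42.4% in FA replicate 2 and 83.8% in FA replicate 3, against 82.2% in PBS replicate 1 and 78.2% in PBS replicate 3. Myh1 held 47.9% in FA replicate 2 and 11.5% in FA replicate 3, against 15.2% and 18.8% in those PBS tumours. The Myh genes are neighbours of similar sequence. In GENCODE M21 transcripts, 13.3% of the 50-base windows of Myh4, 22.9% of Myh1 and 22.3% of Myh2 also occur in one of the other 2, so reads could be split among them and their levels and shares are uncertain. The same count gave 0% for Tnni2 against Tnni1, Tnnt3 against Tnnt1 and Tnnc2 against Tnnc1.

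**Figure D3:**
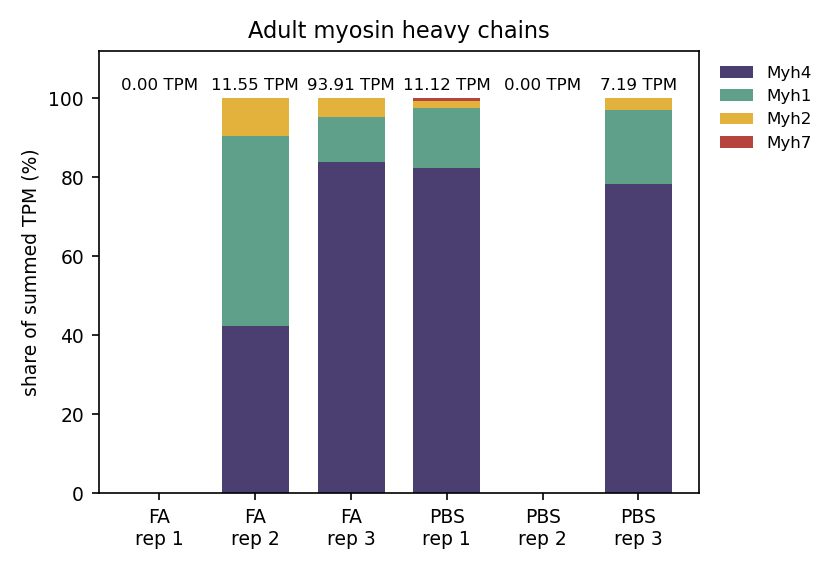
Share (%) of Myh4, Myh1, Myh2 and Myh7 in their summed TPM in each tumour, with the sum printed above each bar. FA replicate 1 and PBS replicate 2 have a sum of 0 TPM and no bar. Myh4 is 42.4% in FA replicate 2 and at least 78.2% in the other 3 tumours.

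Among other genes of the thick filament, Mylpf, the fast regulatory light chain, stood at 1.71, 23.2 and 157 TPM in FA tumours, against 22.1, 1.90 and 13.6 TPM in PBS tumours. Myl1, the fast alkali light chain, stood at 0.43, 10.7 and 97.3 TPM in FA tumours, against 10.6, 0.46 and 8.01 TPM in PBS tumours. Mybpc2, fast myosin-binding protein C, ranged from 0.20 to 30.8 TPM in FA tumours and from 0.19 to 4.44 TPM in PBS tumours. All 3 had the same low and high tumours as Myh4, although all 3, unlike Myh4, were above 0 in every tumour.

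The thin filament gene Acta1 reached the highest level of the 35. Acta1, skeletal alpha-actin, stood at 0.07, 46.2 and 385 TPM in FA tumours, against 49.5, 0 and 43.4 TPM in PBS tumours. FA replicate 2 and the 2 muscle-bearing PBS tumours thus lay between 43.4 and 49.5 TPM, and FA replicate 3 was 7.77-fold above the highest of them. Acta1 shares none of its 50-base windows with the transcripts of Acta2 or Actc1. Neb, the giant nebulin that runs along the thin filament, ranged from 0.29 to 11.7 TPM in FA tumours and from 0.12 to 1.98 TPM in PBS tumours.

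Promoter sequences are shown for 3 genes that varied together, Acta1, Ckm and Myh4, and for Tnnt1, whose level was steady. Each is the stretch from 250 bases before to 50 bases after the gene start, 5′ to 3′, from RefSeq on GRCm38.p6. Capitals mark CAGCTG, an E-box form bound by MyoD family factors, the CArG box bound by serum response factor, and the site of MEF2 factors, each searched on both strands. In these 4 sequences the marked motifs do not overlap one another.
Acta1, chr8:123894726-123895025, minus strand: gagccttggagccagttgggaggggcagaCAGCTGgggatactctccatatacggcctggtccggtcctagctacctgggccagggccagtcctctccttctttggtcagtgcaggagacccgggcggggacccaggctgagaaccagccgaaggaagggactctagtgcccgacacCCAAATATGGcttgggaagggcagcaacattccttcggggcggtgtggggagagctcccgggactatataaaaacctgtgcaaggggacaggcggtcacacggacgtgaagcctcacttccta
Ckm, chr7:19410844-19411143, plus strand: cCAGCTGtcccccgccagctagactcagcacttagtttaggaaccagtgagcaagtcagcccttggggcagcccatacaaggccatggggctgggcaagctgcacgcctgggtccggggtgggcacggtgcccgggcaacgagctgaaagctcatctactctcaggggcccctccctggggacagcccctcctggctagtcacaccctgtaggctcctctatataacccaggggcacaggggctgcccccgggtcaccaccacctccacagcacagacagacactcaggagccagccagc
Myh4, chr11:67237562-67237861, plus strand: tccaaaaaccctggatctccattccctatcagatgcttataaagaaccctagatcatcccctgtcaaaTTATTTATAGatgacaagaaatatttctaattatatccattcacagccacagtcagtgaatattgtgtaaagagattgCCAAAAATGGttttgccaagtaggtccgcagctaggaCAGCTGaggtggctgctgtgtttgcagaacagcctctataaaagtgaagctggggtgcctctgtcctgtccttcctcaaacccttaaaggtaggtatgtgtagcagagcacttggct
Tnnt1, chr7:4515926-4516225, minus strand: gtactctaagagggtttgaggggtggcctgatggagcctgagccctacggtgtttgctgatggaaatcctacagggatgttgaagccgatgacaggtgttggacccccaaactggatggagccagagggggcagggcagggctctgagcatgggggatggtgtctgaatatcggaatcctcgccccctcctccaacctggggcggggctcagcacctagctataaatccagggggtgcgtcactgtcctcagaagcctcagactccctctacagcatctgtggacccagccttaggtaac

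Of the 35 genes, 26 had at least 1 promoter in the table, 30 promoters in all. CAGCTG was in 16 of these 30 (53.3%) and in 16.3% of all 32851 promoters of the same length. A CArG box was in 3 (10%) and in 1.63% of all, and a MEF2 site in 5 (16.7%) and in 3.19% of all. CAGCTG was in promoters of 6 of the 14 genes whose lowest tumour was under 1% of the highest. It was in those of 4 of the 6 genes between 1% and 25%. Of the 6 genes whose lowest tumour was at least 25% of the highest, 4 had it, namely Tnni1, Tpm2, Casq1 and Eno3. The Tnnt1 window held none of the 3 motifs, so it does not stand for these 6 genes.

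Scaffold genes of the Z-disc and M-band, which hold the filaments in register, followed the same tumours. Actn3, the alpha-actinin of fast fibres, ranged from 0.08 to 21.8 TPM in FA tumours and from 0.20 to 3.18 TPM in PBS tumours, and Actn2, the form of all fibres, from 0 to 8.66 TPM in FA tumours and from 0 to 2.06 TPM in PBS tumours. Tcap, which caps titin at the Z-disc, ranged from 0.35 to 26.6 TPM in FA tumours and from 0.35 to 5.03 TPM in PBS tumours. Myoz1, a calcineurin-binding Z-disc protein of fast fibres, reached 10.1 TPM in FA tumours, against 1.14 TPM in PBS tumours, Myot, an actin-bundling Z-disc protein, reached 5.16 TPM in FA tumours, against 0.83 TPM in PBS tumours, and titin itself (Ttn) 1.77 TPM in FA tumours, against 0.33 TPM in PBS tumours. Myom1, which crosslinks myosin at the M-band, varied less, between 0.81 and 4.43 TPM in FA tumours and between 1.08 and 2.09 TPM in PBS tumours.

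Xirp2 set FA replicate 2 apart again. Xirp2, an actin-binding protein of the Z-disc and cell junctions, stood at 0, 3.15 and 13.1 TPM in FA tumours, against 0.48, 0.02 and 0.34 TPM in PBS tumours. FA replicate 2 exceeded PBS replicates 1 and 3 by 6.56-fold and 9.26-fold, where over the 18 genes with the widest spread its median ratio to them was 0.902 and 1.24. Myog, a myogenic transcription factor, stood at 0, 0.79 and 1.86 TPM in FA tumours, against 0.17, 0 and 0.14 TPM in PBS tumours. It was thus higher in FA replicate 2 than in any PBS tumour, but under 1 TPM outside FA replicate 3. Myod1, another such factor, stood at 0.13 TPM in both FA replicate 2 and PBS replicate 1, and at 0.05 TPM in PBS replicate 3. The myosin-binding protein gene Mybph, chosen after its values were seen, stood at 0, 0.95 and 5.29 TPM in FA tumours, against 0.17, 0 and 0.32 TPM in PBS tumours. By limma the log2 difference of Xirp2 was 1.62 ± 0.88, with an unadjusted p of 0.109 and an adjusted p of 1. Xirp2 is one of the genes that reached a mean of 1 TPM only through FA replicate 3, and its log2 difference was 0.97 with array weights and, with no test, 0.69 without that tumour.

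Desmin (Des), the intermediate filament gene of muscle that pericytes and smooth muscle also express, stood at 1.73, 15.8 and 78.4 TPM in FA tumours, against 11.2, 2.40 and 9.21 TPM in PBS tumours. It had the same high and low tumours as Acta1 but stayed above 0 in all 6. Pericyte genes summed to between 57.4 and 171 TPM in FA tumours and between 60.4 and 97.8 TPM in PBS tumours. All 6 of them were highest in FA replicate 3, against 29.4% of all genes tested. The part of pericytes in the level of Des was not tested.

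Calcium-handling genes were at or near 0 in the low tumours, except Casq1. Atp2a1, the calcium pump of fast fibres, stood at 0.06, 5.10 and 71.2 TPM in FA tumours, against 13.0, 0.14 and 7.72 TPM in PBS tumours. Pvalb, a calcium buffer of fast fibres, ranged from 0 to 40.0 TPM in FA tumours and from 0 to 5.32 TPM in PBS tumours. The release channel gene Ryr1 reached 5.01 TPM in FA tumours, against 0.62 TPM in PBS tumours, and its voltage sensor Cacna1s 2.21 TPM in FA tumours, against 0.41 TPM in PBS tumours. Triadin (Trdn), which links the channel to calsequestrin, reached 6.37 TPM in FA tumours, against 1.79 TPM in PBS tumours. Casq1, the calsequestrin of fast fibres, stood at 4.91, 7.10 and 14.6 TPM in FA tumours, against 5.92, 3.92 and 4.64 TPM in PBS tumours, so it was present in every tumour. Its log2 difference was 0.65 ± 0.35, with an unadjusted p of 0.108 and an adjusted p of 1 by limma, and 0.26 without FA replicate 3.

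Energy-supply genes showed the same split. Ckm, muscle creatine kinase, stood at 0, 11.4 and 195 TPM in FA tumours, against 23.4, 0 and 17.7 TPM in PBS tumours. Mb, the oxygen store myoglobin, stood at 0, 4.10 and 18.0 TPM in FA tumours, against 4.82, 0 and 3.57 TPM in PBS tumours. FA replicate 2 had less Ckm than both muscle-bearing PBS tumours, while its Mb lay between theirs. The glycogen phosphorylase gene Pygm ranged from 1.35 to 19.1 TPM in FA tumours and from 0.37 to 3.75 TPM in PBS tumours, and the AMP deaminase gene Ampd1 from 0.06 to 5.13 TPM in FA tumours and from 0.27 to 0.76 TPM in PBS tumours. Eno3, the muscle enolase of glycolysis, stood at 18.3, 18.6 and 48.8 TPM in FA tumours, against 21.5, 17.0 and 21.3 TPM in PBS tumours, a level that the low tumours kept.

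Ranking the genes by their lowest tumour as a percentage of their highest described this split. For 18 of the 35 genes, and 17 of the 32 tested, the lowest tumour was under 1% of the highest, where 1.54% of all genes tested spread as widely. For 6 genes, Tnni1, Tnnt1, Tnnc1, Tpm2, Casq1 and Eno3, it was at least 25%, as for 94.3% of all genes tested. These 6 include all the slow troponins. Ryr1, at 0.998%, and Neb, at 1.02%, lay on either side of the lower limit, and Myom1, at 18.3%, and Casq1, at 26.8%, on either side of the upper one. Both limits were chosen after the values were seen. Of the 17 tested genes under 1%, Actn2, Myot, Xirp2, Ryr1 and Trdn reached a mean of 1 TPM only through FA replicate 3. For these the filter itself favoured a wide spread.

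**Figure D4:**
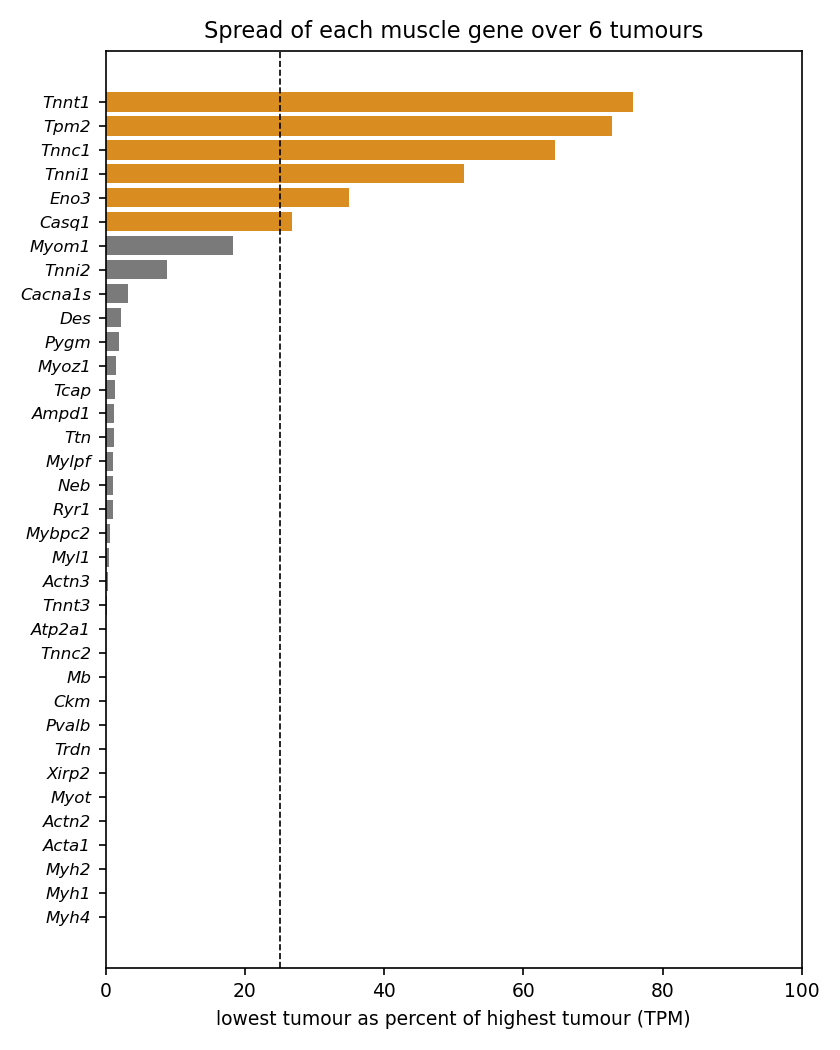
Lowest tumour as a percentage of the highest tumour (TPM) for each of the 35 genes, with the 6 genes at or above 25% (dashed line) in orange. The bars run from 0% for Acta1, Ckm and Myh4 to 75.8% for Tnnt1.

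The relative amounts of the 18 widely varying genes were alike in 3 tumours. Taking each gene as a percentage of its level in FA replicate 3, PBS replicate 1 had a median of 14.5%, with quartiles of 12.1% and 16.6%, and PBS replicate 3 a median of 9.62%, with quartiles of 8.40% and 10.8%. FA replicate 2 had a median of 13.0% and wider quartiles, 9.73% and 23.7%, from 5.15% for Pvalb to 51.3% for Myh1. Across these 18 genes, which are not independent, Pearson's r of log2(TPM + 1) was 0.988 between PBS replicates 1 and 3. FA replicate 3 gave 0.970 with PBS replicate 1 and 0.974 with PBS replicate 3. FA replicate 2 gave 0.896 to 0.924 with these 3 tumours, and FA replicate 1 gave 0.896 with PBS replicate 2. Over all genes r was 0.986 between PBS replicates 1 and 3. It was 0.968 and 0.961 between FA replicate 3 and these, and 0.964 to 0.987 between FA replicate 2 and the 3 tumours. The likeness of the 3 tumours was thus close to that over all genes and is not shown to be particular to muscle genes. The 18 genes were picked by their spread in these same tumours.

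None of the tested muscle genes differed between FA and PBS tumours past the threshold. Of the 35, 32 had a mean of at least 1 TPM and were tested, Myh2, Ttn and Cacna1s being too low, and 7 of the 32 passed this filter only through FA replicate 3. By limma 0 rose and 0 fell at an adjusted p under 0.05, and 0 had an unadjusted p under 0.05. Over all 15023 genes tested 0 rose (0%) and 0 fell (0%), and 192 (1.28%) had an unadjusted p under 0.05. The mean log2 value was higher in FA for 31 of the 32, against 50.7% of all genes tested, and the median log2 difference was 0.76, against 0.0016 for all genes. That direction depended on FA replicate 3: without it 6 of 25 tested genes were higher in FA, against 55.5% of all genes then tested, and the median was -0.29. Without PBS replicate 2 the median was 0.21, and 23 of 33 genes were higher in FA, against 7435 of all 15042 genes then tested. Among those lower in FA in that run were Acta1 (-0.82), Ckm (-0.67) and Tnnt3 (-0.52). Without FA replicate 1 it was 1.65, with 8 of 33 genes at an unadjusted p under 0.05, against 4.09% of all genes then tested, and 0 past the threshold.

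The intervals of single genes were wide. The log2 difference was 1.04 for Acta1, with a 95% interval from -4.71 to 6.79, 0.80 for Ckm, from -4.11 to 5.72, and 0.94 for Myh4, from -2.97 to 4.84. For the fast troponins it was 0.70 for Tnni2, 0.90 for Tnnt3 and 0.84 for Tnnc2. The steady genes had narrow intervals, from -0.49 to 0.30 for Tnnc1 and from -0.21 to 0.37 for Tpm2.

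A list of 30 other skeletal muscle genes varied with the same tumours, with a sum of 20.8, 38.4 and 149.8 TPM in FA tumours, against 38.8, 19.1 and 33.2 TPM in PBS tumours. Of them 29 were highest in FA replicate 3 and 25 were lowest in FA replicate 1 and PBS replicate 2. Over all genes tested these shares were 29.4% and 9.67%. Pgam2, the muscle phosphoglycerate mutase, stood at 1.32, 2.92 and 16.5 TPM in FA tumours, against 3.05, 2.30 and 2.95 TPM in PBS tumours. The phosphorylase kinase gene Phka1, also on this list, varied little. It stayed between 4.51 and 5.25 TPM in FA tumours and between 4.68 and 5.42 TPM in PBS tumours. Of the 30, 20 were tested and 0 passed, and 13 of the 20 reached the mean of 1 TPM only through FA replicate 3. The median log2 difference of the 20 was 0.52 with that tumour and -0.064 without it.

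Genes of muscle precursors were scarce. Pax7, the factor of satellite cells, was at most 0.07 TPM in FA tumours, against 0.01 TPM in PBS tumours, and Myf5 was listed at 0 in all 6. Myod1, a factor of committed myoblasts, stood at 0, 0.13 and 0.46 TPM in FA tumours, against 0.13, 0 and 0.05 TPM in PBS tumours. Myf6, which mature fibres express, stood at 0, 0.62 and 2.19 TPM in FA tumours, against 0.23, 0.05 and 0.41 TPM in PBS tumours. The embryonic and perinatal myosin genes Myh3 and Myh8 were scarce too, Myh3 at most 0.07 TPM in FA tumours, against 0 TPM in PBS tumours, and Myh8 at most 0.15 TPM in FA tumours, against 0.01 TPM in PBS tumours. None of these 10 genes was high enough to be tested. Of 9 neuromuscular junction genes 6 were highest in FA replicate 3, against 29.4% of all genes tested. Chrnb1, an acetylcholine receptor subunit, instead stood between 48.1 and 58.6 TPM in FA tumours and between 52.6 and 59.5 TPM in PBS tumours.

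Cardiac muscle genes were mostly near 0. Myh6, the main heavy chain of mouse heart, reached 0.01 TPM in FA replicate 3 and was listed at 0 elsewhere. The cardiac troponin genes Tnnt2 and Tnni3 were nevertheless present in all tumours, Tnnt2 at 30.8, 37.7 and 64.7 TPM in FA tumours, against 40.0, 30.0 and 29.9 TPM in PBS tumours, and Tnni3 between 5.21 and 6.43 TPM in FA tumours and between 5.22 and 5.69 TPM in PBS tumours. Tnni3 is the direct neighbour of Tnnt1, and both held a steady level.

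Genes of other tissues under the skin did not all move with muscle. Adipoq, an adipocyte hormone, stood at 0.13, 3.15 and 5.01 TPM in FA tumours, against 0.26, 2.55 and 0.17 TPM in PBS tumours. Fabp4, the most abundant gene of the adipocyte list and one that endothelium also expresses, stood at 12.2, 37.0 and 150.3 TPM in FA tumours, against 61.0, 32.0 and 24.6 TPM in PBS tumours. Adipoq was thus higher in PBS replicate 2 than in PBS replicates 1 and 3, while Fabp4 was highest of these in PBS replicate 1. The 10 adipocyte genes summed to 28.0, 76.0 and 211 TPM in FA tumours and to 72.8, 74.9 and 36.6 TPM in PBS tumours. Fabp4 made up most of that sum in FA replicate 3 and PBS replicate 1. Cfd, also on the list, stood at 0.05, 14.2 and 37.3 TPM in FA tumours, against 0.20, 22.2 and 0.56 TPM in PBS tumours. Cidec varied less, between 11.97 and 17.05 TPM in FA tumours and between 8.70 and 12.76 TPM in PBS tumours. Of 10 skin keratinocyte genes, Krt5 and Dsg1a were listed at 0 in all tumours and Krt1 was at most 0.02 TPM in FA tumours, against 0 TPM in PBS tumours. Krt14 stood between 1.85 and 6.59 TPM in FA tumours and between 1.69 and 2.60 TPM in PBS tumours. Krt10 was present in every tumour, between 6.68 and 8.62 TPM in FA tumours and between 7.47 and 7.81 TPM in PBS tumours. Ivl was too, between 3.27 and 6.44 TPM in FA tumours and between 3.19 and 5.33 TPM in PBS tumours.

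Stromal genes were highest in FA replicate 3, as muscle genes were, but the low tumours kept more of them. The 8 endothelial genes summed to 64.2, 83.3 and 243 TPM in FA tumours and to 111, 70.2 and 84.1 TPM in PBS tumours, and all 8 were highest in FA replicate 3. The 8 fibroblast genes summed to 1916, 2353 and 6536 TPM in FA tumours and to 3545, 1861 and 2401 TPM in PBS tumours, again with all 8 highest in FA replicate 3. Over all genes tested 29.4% were highest in that tumour. The 9 smooth muscle genes summed to between 232 and 416 TPM in FA tumours and between 134 and 238 TPM in PBS tumours. Acta2, smooth muscle actin, stood at 74.0, 85.7 and 189.6 TPM in FA tumours, against 90.7, 39.6 and 69.5 TPM in PBS tumours. Schwann cell genes summed to between 55.8 and 62.7 TPM in FA tumours and between 50.4 and 89.0 TPM in PBS tumours, and erythroid genes to between 190.1 and 341 TPM in FA tumours and between 81.8 and 635 TPM in PBS tumours, neither highest in FA replicate 3. None of these list members passed the threshold by limma, and the part of stromal content in the muscle values was not tested.

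**Figure D5:**
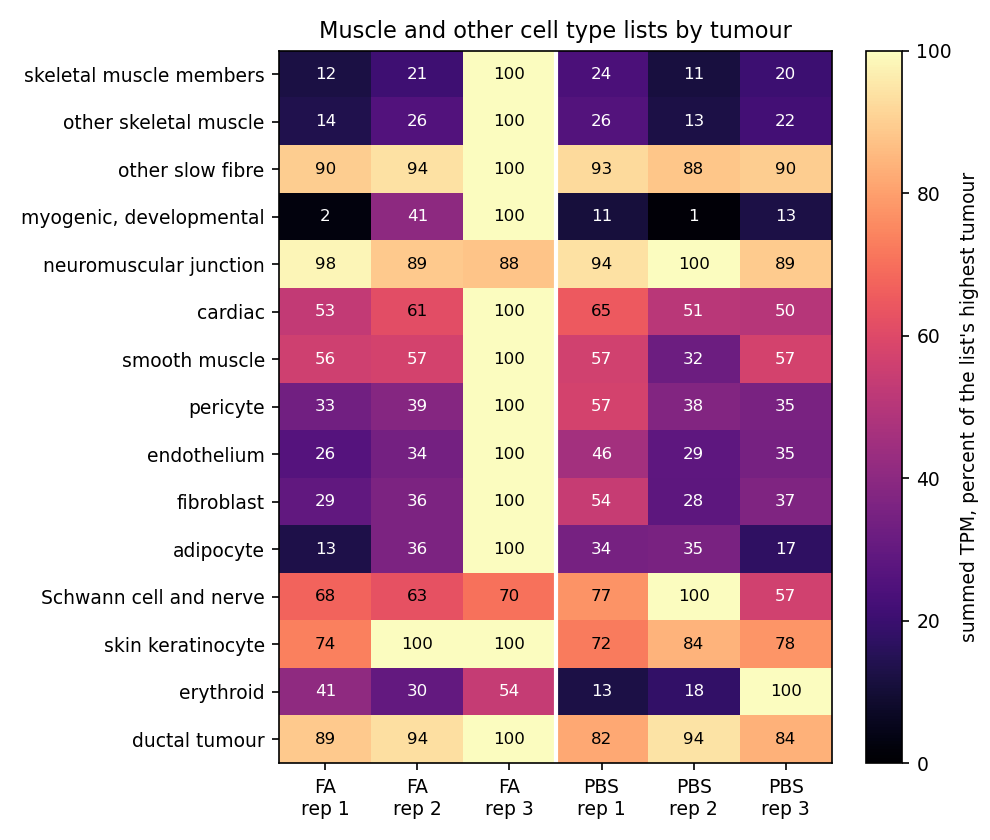
Summed TPM of each gene list in each FA and PBS tumour, as a percentage of the tumour where that list is highest. Skeletal muscle genes drop to 12.2% in FA replicate 1 and 11.4% in PBS replicate 2, while endothelial genes keep 26.4% and 28.9% there and ductal genes 89.0% and 94.4%. Most of the muscle sum in FA replicate 1 and PBS replicate 2 is Tpm2, at 186 of 248 TPM and 173 of 231 TPM.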

How the data were processed

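RNA from 3 FA and 3 PBS tumours had been made into stranded total RNA libraries, per the labels' protocols. The authors deposited 1 table of TPM. FastQC, STAR, featureCounts and RSEM appear in the submitters' processing notes with neither version nor role, and no source used here gives the genome build or annotation. Columns were matched to tumours by the sample descriptions, whose prefix differs between FA and PBS, so what it marks cannot be told apart from treatment. Nothing in the labels says that the tumours came from separate mice, so p-values measure the spread between these samples.

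The members, gene lists, tests and the rule for named genes were chosen with earlier results of these data known. The named genes are the 6 troponins, Myh4, Myh1, Myh2, Acta1, Ckm, Mb, Atp2a1, Des and Tpm2. They also include the 3 other members of highest mean, the 3 with the smallest p, and the slow and myogenic genes Myh7, Myl2, Myl3, Pax7, Myod1 and Myog. Of 14 other lists (137 genes), some genes among the 4 of highest mean are named. Others of these are not, and several lists are given only as sums. Further members are given by range. Of the other lists, further genes are named for being at or near 0, or for following or not following the muscle load, after their values were seen. Values were tested as log2(TPM + 1) with limma 3.58.1 in R 4.3.3 (trend, no covariate) on genes averaging 1 TPM or more over the 6 tumours, two-sided, with Benjamini-Hochberg adjustment and a threshold of 0.05. The pseudocount of 1 understates changes of low genes. Alternatives covered pseudocounts, filters, scaling, array weights, a replicate block and leaving out each tumour. Sums, shares and motif counts have no test.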

Additional observations from a re-analysis of the deposited data

How the results depend on the processing

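By limma, 0 members were higher and 0 lower in every alternative run, and over all genes 0 were higher and 0 lower except for 2 higher without the filter and 1 lower without FA replicate 3 (0 to 0 higher and 0 to 1 lower when 1 tumour was left out), and the cause of these was not tested. Leaving out each tumour gave log2 ratios of the summed TPM from -0.17 to 1.70, median member differences from -0.29 to 1.65, and a share of members highest in an FA tumour from 34.3% to 100%. The lowest of each came without FA replicate 3. FA minus PBS fast shares of troponin TPM ran from -10.2 to 19.8 percentage points when 1 tumour was left out. With array weights, where FA replicate 3 had the lowest weight (0.217), the median member difference was -0.044. The log2 differences of single genes with 1 tumour left out were -0.25 to 1.44 for Tnni2, -0.78 to 2.74 for Tnnt3, -0.85 to 2.58 for Tnnc2, -0.74 to 2.42 for Myh4, -0.88 to 3.37 for Acta1, -1.13 to 2.68 for Ckm, -0.40 to 1.72 for Mb, -1.03 to 2.02 for Atp2a1, -0.15 to 2.28 for Des, -0.046 to 0.18 for Tpm2, -0.29 to 2.64 for Mylpf, -0.10 to 0.59 for Eno3 and -0.38 to 2.67 for Myl1, each lowest without FA replicate 3. Tnnc1 ran from -0.21 to 0.042. Casq1 ran from 0.26 to 0.96, again lowest without FA replicate 3. In a comparison chosen after seeing the data, leaving out FA replicate 3 gave a median of -0.064 for the 20 other skeletal muscle genes and 0.69 for Xirp2. Array weights gave -0.030 for Tnni2, -0.62 for Tnnt3, -0.63 for Tnnc2, -0.50 for Myh4, -0.78 for Acta1, -0.95 for Ckm, -0.28 for Mb, -0.83 for Atp2a1, -0.026 for Tpm2, -0.051 for Mylpf, -0.0092 for Eno3 and -0.15 for Myl1. They gave 0.37 for Casq1 and 0.97 for Xirp2. Of 281 single-gene values under alternatives, 34 turned in sign and 0 changed call. Replicate numbers did not pair the tumours (correlations of deviations -0.21, 0.053 and -0.022), and with them as a replicate block 0 genes were higher and 0 lower, with a median member difference of 0.76. Depth limits cannot be told from TPM.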
